A study of Caenorhabditis elegans with 6 samples.

Results

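The genes described here are 7 that cleave, trim, package or release neuropeptides, *egl-3*, *egl-21*, *sbt-1*, *kpc-1*, *aex-5*, *ida-1* and *unc-31*, out of 17118 genes that the array reads with a probe set of their own. They were chosen by name for what their products do, but with their intensities in RPW-24 and in DMSO already known, so the comparison of these treatments is given below as a description of the members and supports nothing further. The array holds 12 probe sets that name 1 of these genes and no other, with 4 for *kpc-1*, 2 each for *egl-3* and *ida-1*, and 1 each for *egl-21*, *sbt-1*, *aex-5* and *unc-31*. Wild-type N2 *C. elegans*, the standard laboratory strain, carrying no transgene or mutation, were grown on *E. coli* OP50 until late in the L4 larval stage. They then spent 15 hours at 15°C in liquid medium with OP50 and either 70 µM RPW-24, a synthetic quinazoline compound that lengthens the life of worms on pathogenic bacteria, or the solvent alone, so that both groups held 1% DMSO. RNA of whole animals was read on 6 Affymetrix arrays, 3 for each treatment. The biological replicates are lettered G, H and I, and the treatments of a letter were run in parallel.

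Neuropeptides are made as long precursors that enter the secretory pathway. A proprotein convertase cuts them after basic residues, a carboxypeptidase removes the basic residues left at the end, and a pair of enzymatic steps turns a final glycine into an amide. The finished peptides are stored in dense-core vesicles and are released when these fuse with the plasma membrane of neurons, and in *C. elegans* of intestinal cells too. EGL-3 is the nematode counterpart of the mammalian convertase PC2 and cuts most neuropeptide precursors, with SBT-1, the counterpart of 7B2, as its chaperone. EGL-21 is the counterpart of carboxypeptidase E. KPC-1 is a furin-like convertase, and AEX-5 is a convertase needed for the defecation motor program. IDA-1, the counterpart of the diabetes autoantigen IA-2, is a membrane protein of dense-core vesicles, and UNC-31, the counterpart of CAPS, primes these vesicles for release.

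The values are intensities made by the authors with GC-RMA and quantile normalization, with a lowest value of 4.39, and differences are given on the log2 scale as RPW-24 minus DMSO. The median intensity of an array lay between 8.94 and 9.04 in DMSO and between 9.83 and 9.98 in RPW-24, and each array had from 35.7% to 37.2% of its probe sets at the lowest value. An intensity depends on the probes as well as on the transcript, so levels are compared between treatments and never between genes. Whole animals were used, so that a larger share of the RNA from a tissue and more transcript within its cells cannot be told apart. A gene was called where limma, fitted over all 22548 probe sets, gave a Benjamini-Hochberg adjusted p under 0.05 for its brightest probe set.

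Of the 7 members, *egl-3* and *egl-21*, for the main convertase and the carboxypeptidase, were called higher in RPW-24, by 2.01-fold and 1.64-fold, and none was called lower. *sbt-1*, 1.79-fold, and *aex-5*, 1.59-fold, did not pass, nor did *kpc-1* and *ida-1*, and *unc-31* was at the limit of the array. Over all 17118 genes, 2.63% were called higher and 1.08% lower. Because the members were picked with this contrast in view, nothing is read from the difference between these shares. Before adjustment, 3 of the 7 members were higher at p under 0.05 in limma and none was lower, beside 7.1% of all genes higher and 8.2% lower. The median difference of the 7 was 0.67, against -0.00 over all genes.

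*egl-3*, the main convertase, had intensities of 174, 172 and 130.1 in DMSO and of 285, 343 and 324 in RPW-24 in replicates G, H and I. Every RPW-24 array was thus well above every DMSO array, and the DMSO array of replicate I was the lowest. The means were 159 ± 25 (SD, n = 3) and 317 ± 29.5 (SD, n = 3), a log2 difference of 1.01 (standard error 0.15, 95% interval 0.62 to 1.40). The dimmer probe set of *egl-3* had 44.3, 40.5 and 33.4 in DMSO and 53.9, 68.8 and 62.1 in RPW-24. It showed the same order of the treatments with a smaller difference of 0.65 (standard error 0.15), and it was not called. Within the pairs the difference of the brighter probe set was 0.71 in G, 0.99 in H and 1.32 in I, and that of the dimmer 0.28, 0.76 and 0.90, so both read the smallest change in G and the largest in I.

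*sbt-1*, which encodes the chaperone of EGL-3, had intensities of 155, 182 and 152 in DMSO and of 241, 354 and 287 in RPW-24. The groups did not overlap, and the RPW-24 arrays spread more widely than the DMSO arrays. The means were 163 ± 16.1 (SD, n = 3) and 294 ± 56.8 (SD, n = 3), a log2 difference of 0.84 (standard error 0.17, 95% interval 0.40 to 1.28) that did not pass over all probe sets. In the pairs it was 0.63 in G, 0.96 in H and 0.91 in I.

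*egl-21*, the carboxypeptidase of the next step, gave the most even change of the members. Its intensities were 381, 322 and 339 in DMSO and 634, 539 and 541 in RPW-24. Replicate G was the highest in both treatments, and the pairs differed by 0.73, 0.74 and 0.68. The means were 347 ± 30.5 (SD, n = 3) and 571 ± 54.2 (SD, n = 3), a log2 difference of 0.72 (standard error 0.10, 95% interval 0.46 to 0.98). Its only probe set, like those of *sbt-1* and *aex-5*, is of a design that can match several transcripts. So are the dimmer probe set of *egl-3*, both of *ida-1* and all but the dimmest of *kpc-1*.

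*aex-5*, which with the peptide signal of the gut serves defecation, had intensities of 135, 92.4 and 87 in DMSO and of 183, 189 and 126 in RPW-24. Each pair was higher in RPW-24, by 0.43, 1.03 and 0.54, but the groups overlapped, since the DMSO array of replicate G lay above the RPW-24 array of replicate I. The means were 105 ± 26.4 (SD, n = 3) and 166 ± 34.7 (SD, n = 3), a log2 difference of 0.67 whose 95% interval, from -0.00 to 1.34, was the widest among the brightest probe sets of the members.

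**Figure D1:**
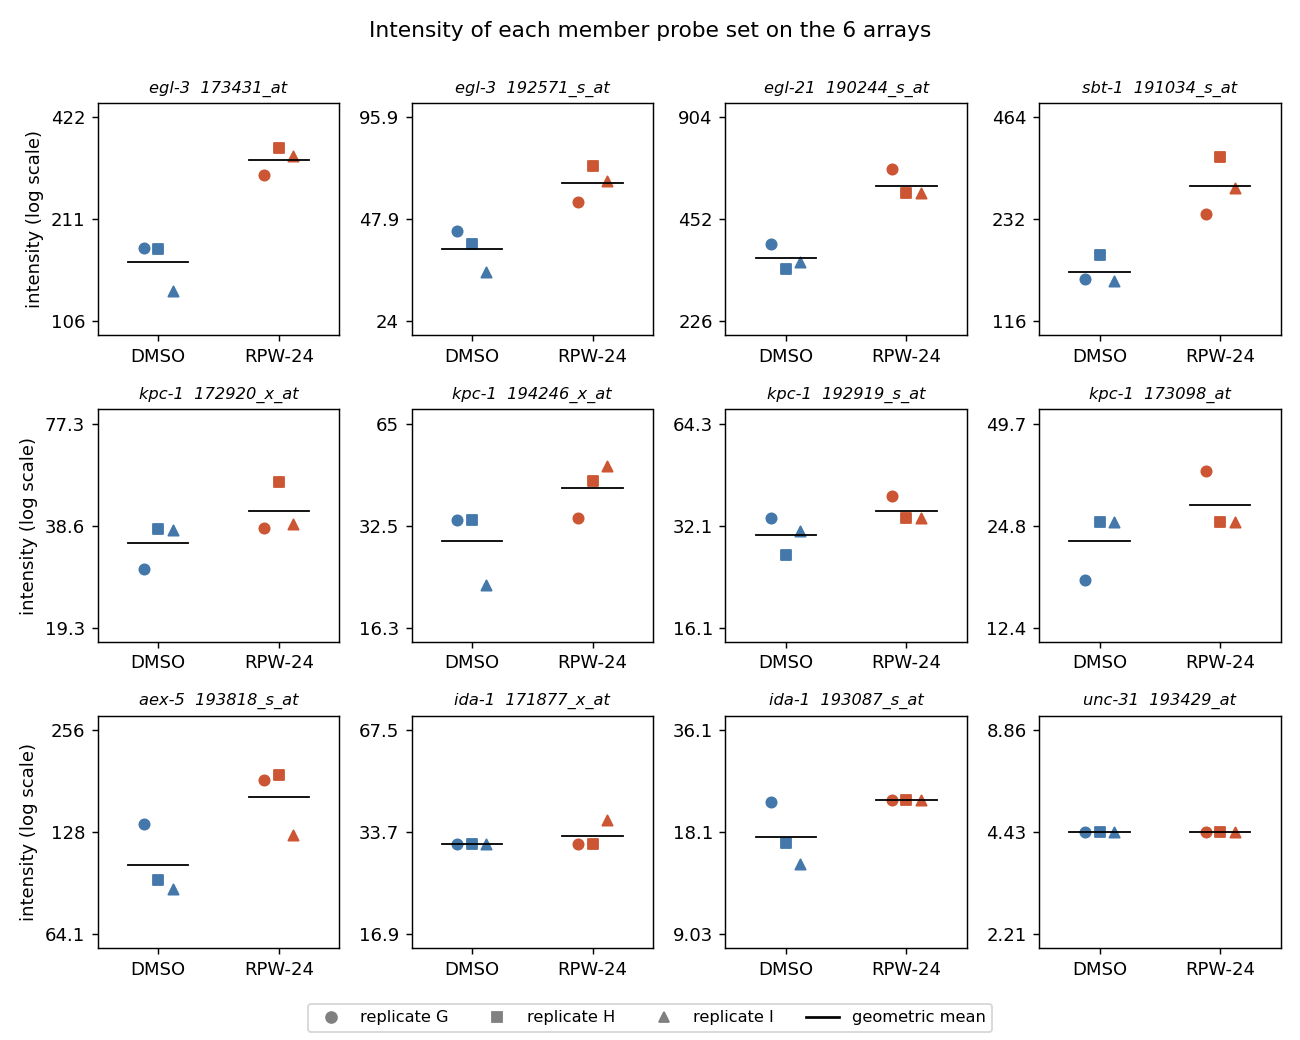
Intensity of the 12 member probe sets on each array, 1 panel per probe set, on a log axis that spans the same fold range in each panel (points, the 3 arrays of each treatment by replicate letter; bars, geometric means). The RPW-24 arrays of *egl-3*, *egl-21* and *sbt-1* lie above all DMSO arrays, *aex-5* overlaps, and *unc-31* has the same value of 4.43 on all 6 arrays.

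*kpc-1*, the furin-like convertase, was dim and showed small differences. Its brightest probe set had 28.7, 37.8 and 37.6 in DMSO and 37.9, 52 and 39 in RPW-24, so that the groups were apart only by a hair. The log2 difference was 0.30 (standard error 0.19, 95% interval -0.18 to 0.79). The other probe sets of *kpc-1* gave 0.52, 0.24 and 0.35, so all 4 leaned to RPW-24, none was called, and each interval included 0. They did not share a replicate that carried the difference, since the largest pair was I for the probe set with 0.52 and G for that with 0.35. An increase of *kpc-1* as large as that of *egl-3* lay outside the interval of its brightest probe set but inside that of the probe set with 0.52, which ran from -0.12 to 1.16.

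*ida-1* was dim, although both of its probe sets lay above the median of every array. The brighter had 31.1 on all DMSO arrays and on the RPW-24 arrays of G and H, and 36.6 on that of I, a log2 difference of 0.08 (95% interval -0.13 to 0.29). The dimmer had 22.2, 16.8 and 14.5 in DMSO and 22.5 on each RPW-24 array, a difference of 0.36 (95% interval -0.08 to 0.80). Such repeated values are a property of the processed table. Of 13946 probe sets above the lowest value on all arrays, 48.9% held the same intensity on at least 1 pair of arrays, and 85.7% of those with a mean log2 value under 6. A spread of 0 over 3 arrays of *ida-1* is therefore no measure of its replicate error. *unc-31* had 4.43 on each of the 6 arrays, just above the lowest value, so a change of this transcript was not detectable with its single probe set.

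By groups that do not overlap, the brightest probe sets of *egl-3*, *egl-21*, *sbt-1* and *kpc-1*, 4 of the 7 members, had every RPW-24 array above every DMSO array, and none was wholly below. Of all genes, 8.4% were wholly above in this way and 10.4% wholly below. Of the 7365 genes with a mean log2 intensity of at least 5, 16.2% were wholly above and 22.7% wholly below, and 5.36% were called higher. No member reached the thresholds of the methods, a 3-fold change with p under 0.025 before adjustment, which 1.63% of genes passed as higher and 0.38% as lower.

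The calls stood near the threshold. Leaving out any 1 of the 6 arrays, no member was called, although the difference of *egl-3* stayed between 0.87 and 1.08, that of *egl-21* between 0.64 and 0.79 and that of *sbt-1* between 0.69 and 0.97. Blocking on the replicate letter left *egl-21* as the only member called. Where the fit was restricted to the probe sets of mean log2 intensity 5 or more, *egl-3*, *egl-21* and *sbt-1* were called, with the block, a setting chosen after seeing the data, and without it. In the same fits, 7 of the 45 other pathway genes described below were called higher, against 3 of 80 without the filter. The share of all genes called in these filtered fits is not given here, so nothing is read from these calls.

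**Figure D2:**
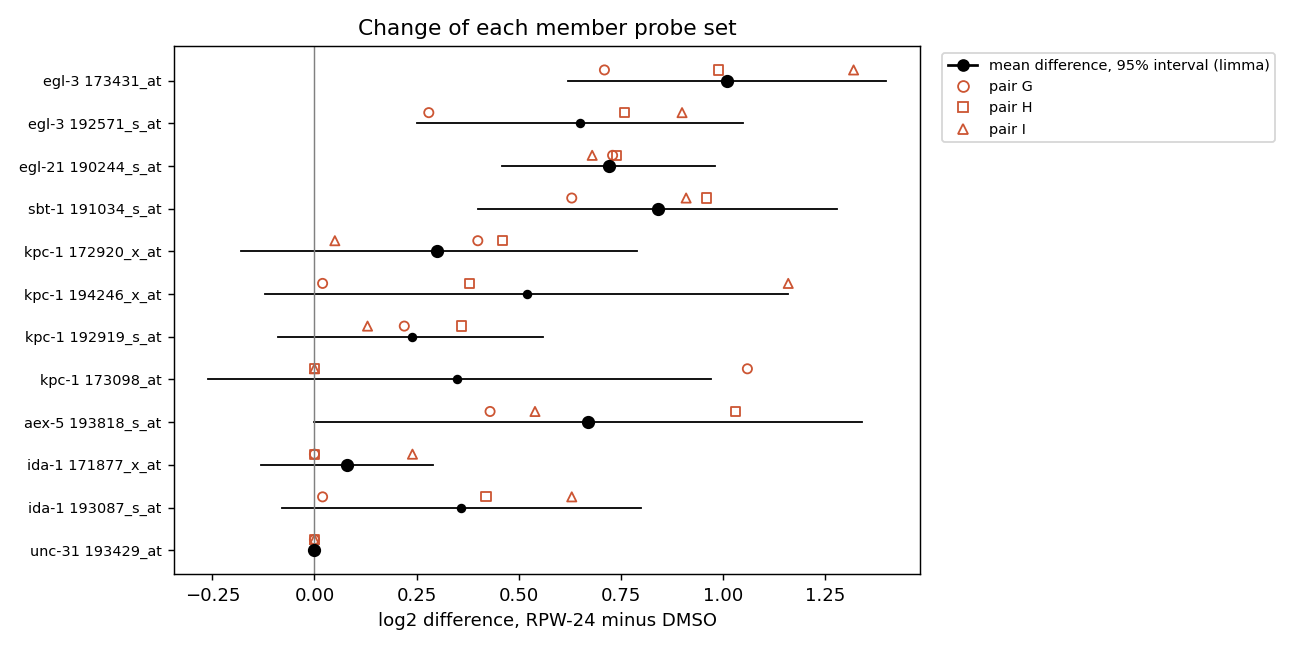
Log2 difference, RPW-24 minus DMSO, of each member probe set (filled points, mean difference with its 95% interval from limma, larger for the brightest probe set of a gene; open marks, the pairs G, H and I). The intervals of *egl-3*, *egl-21* and *sbt-1* lie above 0, from 0.25 for the dimmer *egl-3* probe set upwards, and those of *kpc-1* and *ida-1* include 0.

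The other genes of the pathway were described from lists drawn up by function, 80 genes in all with the 7 members left out. These lists, and the precursor and marker lists below, were chosen with earlier results of these data known. Their p-values are therefore given as a description too. Of the 80 genes, 3 were called higher in RPW-24, *pghm-1*, *cab-1* and *ric-4*, and 1 lower, *snap-1*. Over all genes, 2.63% were called higher and 1.08% lower, shares near those of the 80. The median difference of the 80 was 0.01. Thus most genes of peptide packaging and release stayed uncalled, but only 45 of the 80 had a mean log2 intensity of at least 5. Over these 45 the median difference was 0.07, and 9 of the 80 were at the lowest value on all arrays. For the dim genes, a missing call does not show that the transcript was unchanged.

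Among 6 further processing enzymes, 1 was called higher and none lower. *pghm-1*, which encodes the hydroxylating enzyme of the amidation step, had 50.2, 50.5 and 44.2 in DMSO and 87.4, 106 and 84 in RPW-24, without overlap. Its log2 difference was 0.93 (standard error 0.12, adjusted p = 0.0289 from limma). *pgal-1*, whose product completes amidation, had intensities from 92.6 to 127 in DMSO and of 175, 216 and 184 in RPW-24. These groups did not overlap either, and the difference of 0.84 (standard error 0.15) did not pass over all probe sets (adjusted p = 0.0709 from limma). *pamn-1*, for an amidating enzyme that joins both activities, had 0.11 (95% interval -0.43 to 0.65). *bli-4*, a furin-like convertase that processes cuticle proteins, was at 1611, 1538 and 1479 in DMSO and at 1172, 1541 and 1494 in RPW-24, a difference of -0.15 with overlapping groups. Of the 9 probe sets of *bli-4*, 1 passed, named here after its values were seen, with 889, 882 and 944 in DMSO and 644, 652 and 671 in RPW-24 (log2 difference -0.46, adjusted p = 0.00694 from limma).

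Among 16 genes of dense-core vesicle formation and maturation, 1 was called higher and none lower. *cab-1*, which encodes a binding partner of AEX-3, had 244, 226 and 239 in DMSO and 459, 459 and 474 in RPW-24, with little spread in either group. The log2 difference was 0.97 (standard error 0.04, adjusted p = 0.00106 from limma), and *cab-1* was called in each of the fits that left out 1 array and with the replicate block. The RPW-24 arrays of replicates G and H held the same intensity, a repeat of the kind described for *ida-1*. This standard error may therefore understate the replicate error. This probe set can match several transcripts. The other probe set of *cab-1*, with at most 163 in DMSO and 279, 202 and 173 in RPW-24, had a difference of 0.54 (standard error 0.24) that did not pass (adjusted p = 0.406 from limma), and with the mean of both *cab-1* was not called. The small GTPase genes *rab-5*, *rab-10* and *unc-108* were the brightest of this list, and their differences of 0.07, -0.05 and 0.10 did not pass. None of 9 genes of vesicle transport was called, and before adjustment 1 was higher at p under 0.05 in limma. That one was *unc-44*, an ankyrin gene, with 0.79, and *unc-116*, for the kinesin heavy chain, and *unc-76* had -0.03 and -0.10.

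Among 32 genes of vesicle priming, fusion and their control, 1 was called higher and 1 lower. *ric-4*, for the neuronal SNARE protein SNAP-25, had 50, 56.5 and 56.5 in DMSO and 73.7, 76.7 and 80.4 in RPW-24, a log2 difference of 0.50 (adjusted p = 0.0425 from limma). *snap-1*, for the alpha-SNAP protein that helps to take SNARE complexes apart in all cells, had 5060.2, 4988 and 5113 in DMSO and 4585, 4332 and 4498 in RPW-24, a small difference of -0.18 (adjusted p = 0.0496 from limma). Neither these genes nor *pghm-1* were called with the replicate block or with any 1 array left out. *aex-6*, for the Rab27 GTPase that acts in vesicle release, is named here after its values were seen. Its brightest probe set varied widely in RPW-24, with 17.5, 31.5 and 31.5 in DMSO and 114, 32 and 57.5 in RPW-24, and did not pass (log2 difference 1.20, standard error 0.56). Its dimmer probe set had 18, 19.7 and 21.4 in DMSO and 74.8, 81.9 and 59.1 in RPW-24, a difference of 1.86 (standard error 0.15, adjusted p = 0.00842 from limma). *snb-1*, for the vesicle SNARE synaptobrevin, and *goa-1*, for a G protein that restrains release, were bright and differed by -0.00 and 0.12.

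Of 10 enzymes that break peptides down none was called. At an unadjusted p under 0.05, limma found 1 lower and none higher. The dipeptidyl peptidase gene *dpf-3* had -0.26, and the neprilysin genes *nep-1* and *nep-17* had -0.27 and 0.20. Of 7 genes of peptide signals and receptors near the members, none was called, although 1 was higher in limma at p under 0.05 before adjustment. It was *nlp-40*, the precursor of the intestinal peptide that times defecation and that AEX-5 is known to process, at 2395, 2019 and 1990.2 in DMSO and 3211, 2814 and 2539 in RPW-24, a difference of 0.42 (standard error 0.12). The receptor genes *pdfr-1* and *egl-6* had 0.01 and -0.05, and *aex-2*, for the receptor of NLP-40, was listed at the lowest value.

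Genes of the peptide precursor lists, which were not tested as substrates of these enzymes, were called higher in a few cases and lower in none. Over all genes, 2.63% were called higher and 1.08% lower. At an unadjusted p under 0.05 from limma, 7.1% were higher and 8.2% lower. Of the 7365 genes with a mean log2 of at least 5, 1043 were higher and 1341 lower at that p. An excess of the lists over these shares was not tested. Of 25 FMRFamide-like genes 3 were called, *flp-15*, *flp-16* and *flp-22*, with log2 differences of 1.58, 1.35 and 0.59 and adjusted p of 0.0333, 0.0268 and 0.0448 from limma. Of 58 neuropeptide-like genes 16 were higher and none lower in limma at p under 0.05 before adjustment. Of these 2 were called, *nlp-17* with 1.75 and *nlp-31*, which encodes antimicrobial peptides, with 1.11 (adjusted p of 0.0406 and 0.0424 from limma), while the bright genes *nlp-28* and *nlp-29* had 0.04 and -0.23. Of 24 insulin-like genes, *ins-18* alone was called, with 0.43 at intensities between 11 and 16.1 (adjusted p = 0.0341 from limma), and *ins-34*, *ins-17* and *ins-23* had -0.04, 0.22 and 0.32. With the replicate block none of these 6 precursor genes was called. The probe sets of *flp-15* and *nlp-31* can match several transcripts. Without such probe sets, *flp-16* alone of 18 FMRFamide-like genes, *nlp-9* alone of 41 neuropeptide-like and *ins-18* alone of 23 insulin-like were called. Over probe sets with a mean log2 of at least 5, 1 of 6 FMRFamide-like genes, *flp-22*, was called. So were 6 of 21 neuropeptide-like genes, with *nlp-17* and *nlp-31* among them. The filter took the mean of both treatments, and *nlp-17* met it only through RPW-24, with mean log2 6.65 against 4.90 in DMSO. Its calls in the filtered fits are thus no further support. The same level filter with the replicate block, a setting chosen after seeing the data, called *flp-22* and *flp-12* of the 6. It also called 7 of the 21, again with *nlp-17* and *nlp-31*. Most genes of these lists were dim, since 6, 21 and 0 had a mean log2 intensity of at least 5, and *flp-15*, *flp-16* and *ins-18* were themselves under it.

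**Figure D3:**
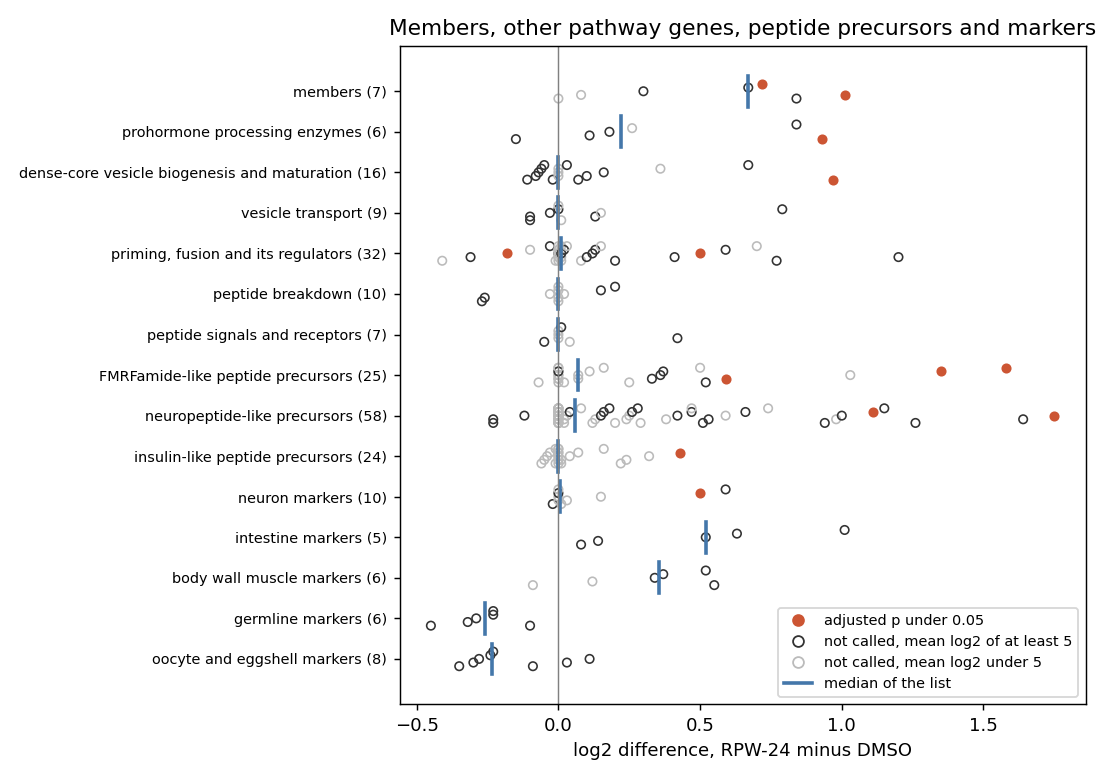
Log2 difference, RPW-24 minus DMSO, of each gene of the lists, with the number of genes in brackets (filled points, called at an adjusted p under 0.05; open points, not called, pale where the mean log2 intensity is under 5; blue bars, list medians). The members, chosen with this contrast known, have a median of 0.67, or 0.72 over those with a mean log2 of at least 5. The lists for vesicle formation, transport and release have medians of 0.00, -0.00 and 0.01. Over their genes with a mean log2 of at least 5 these are 0.00, -0.02 and 0.12. The further processing enzymes have a median of 0.22, the intestine markers 0.52 and the body wall muscle markers 0.36. The germline and the oocyte and eggshell markers have -0.26 and -0.24. The FMRFamide-like and neuropeptide-like lists have 0.07 and 0.06, or 0.37 and 0.47 over their genes with a mean log2 of at least 5.

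Markers of the cell types of a whole animal were read on the same arrays. Over all genes, 7.1% were higher and 8.2% lower at an unadjusted p under 0.05 from limma. Of 10 neuron markers, *ric-4* was called higher and none lower, and 2 were higher in limma at p under 0.05 before adjustment. The second was *unc-64*, for the SNARE protein syntaxin, with 264, 263 and 276 in DMSO and 512, 326 and 396 in RPW-24, groups that did not overlap (log2 difference 0.59, standard error 0.18). The markers *ric-4*, *unc-64*, *snb-1*, *rab-3*, *snt-1*, *unc-104* and *ric-19* are also among the 80 other pathway genes. Their values are thus not a separate reading. The summed intensity of the 10 markers ran from 5033 to 5469 in DMSO and from 5103 to 5790.4 in RPW-24, most of it from *snb-1*, and their median difference was 0.01, or 0.25 over the 4 with a mean log2 intensity of at least 5. The defining neuron markers *rgef-1* and *sng-1* were at the lowest value on all arrays, and *unc-119*, used to mark all neurons, had -0.02. Of 5 intestine markers none was called, although 3 were higher in limma at p under 0.05 before adjustment, and their summed intensity ran from 8384 to 11059 in DMSO and from 12194 to 16132 in RPW-24. The 6 body wall muscle markers, none called, ran from 12812 to 17059 and from 17547 to 23241. The 6 germline markers and the 8 oocyte and eggshell markers leaned the other way, with medians of -0.26 and -0.24. None of them was called, with 2 and 5 lower at an unadjusted p under 0.05 from limma, and their sums ran from 27809 to 28971 and from 105708 to 106858 in DMSO and from 21777 to 25344 and from 92946 to 99816 in RPW-24. The median of 23 major sperm protein genes was 0.60, with none called or at an unadjusted p under 0.05. Of 4 pharynx muscle and 4 hypodermis markers none was called, with medians of -0.00 and -0.02. The intestine and body wall muscle sums of the treatments did not overlap and were higher in RPW-24, and those of germline and of oocyte and eggshell were lower. Their part in the values of the members was not tested.

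The genes whose pattern over the 6 arrays was most like the mean pattern of the members were sought among 7360 others with a mean log2 intensity of at least 5. The closest was *pghm-1*, with Pearson r = 0.9989, the hydroxylating enzyme of amidation described above. It was followed by *hsp-16.2*, a small heat shock gene with a far larger difference of 4.64, *gem-4*, *Y37D8A.6* and *ttr-16*, with r from 0.9937 to 0.9975. These r values describe 6 arrays that differ above all by treatment, and 554 genes had an r over 0.9.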

How the data were processed

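The authors computed the deposited intensities, linear values for each of the probe sets, by GC-RMA with quantile normalization in GenePattern. The labels name the tool as GCRMA, with no version. Array medians still differed between the treatments, and a change in total RNA cannot be seen in such values. Of 22625 probe sets, 77 controls were left out. Genes were named from the array's annotation, with 1 gene for 20766 probe sets, several for 887 and no gene for 895, and 20701 of the first were matched to the reference table. A gene is given by its brightest probe set.

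The treatments were tested on log2 intensities in R 4.3.3 by limma 3.58.1 (eBayes with a variance trend, no filter, no block), and p-values were adjusted over 22548 probe sets. The script was tested on simulated data. Lists and plots were made in Python 3.11.15 with pandas 2.3.3 and matplotlib 3.10.9. All members were named. Of other lists, called genes were named, and the 3 brightest where fewer than 3 were called. The members and lists were chosen with earlier results of these data known.

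The letter pairs the arrays, since the submitters describe its treatments as run in parallel. The main fit leaves this pairing out, so its standard errors, intervals and calls do not use it. Over 9951 probe sets with a mean log2 of at least 5, deviations from the group means correlated at 0.113, 0.171 and 0.162 for G, H and I, and between -0.105 and -0.0446 for unlike letters. The number of arrays limits the precision. With 3 against 3, an exact permutation test of 1 gene cannot give a p below 0.1. Alternatives were the block, a level filter, other scalings, other probe set rules, a raised floor, the methods' t-test and each array left out.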

Additional observations from a re-analysis of the deposited data

How the results depend on the processing

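Apart from *ida-1* and *unc-31*, the log2 differences of the member probe sets kept their direction in all settings. The brighter *ida-1* probe set had -0.06 with arrays centred on their medians, -0.10 after a further quantile normalization and -0.00 without replicate I of RPW-24, and the dimmer had -0.00 with values under 32 set to 32. *unc-31*, at 0, took -0.14 from the centring, the shift that this step gives all probe sets, and was then the 1 member called lower. Of the 7 members (2 called higher), 0 were called higher without the variance trend, with values under 32 set to 32, by the methods' t-test or at 3-fold, 0 of 3 without probe sets that can match several transcripts, and 1 each with the replicate block and with the mean of all probe sets. At an unadjusted p under 0.05, limma without the trend, limma with the raised floor and the methods' t-test each gave 3 higher. With any 1 array left out 0 were called (3 or 4 at an unadjusted p under 0.05 from limma). With 5 arrays the fit has fewer samples. Of the 80 other pathway genes (3 called higher and 1 lower), 1 was called higher and 0 lower with the replicate block and by the methods' t-test. Without the trend and with values under 32 set to 32, 0 were called lower, and at 3-fold 0 passed in either direction. Over probe sets with a mean log2 of at least 5, 7 were called higher, and also with the block, a setting chosen after seeing the data, which called 0 lower. Centring gave 8 higher and 33 lower, a further quantile normalization 4 lower, and the mean of all probe sets 1 higher. With 1 array left out, 1 to 2 were called higher and 0 lower. Over all probe sets, 69.3% of calls were higher, against 7.13% after centring and 42.2% after the further quantile normalization. Of the FMRFamide-like, neuropeptide-like and insulin-like lists (3, 2 and 1 called higher), 0 were called with the replicate block, and 0 or 1, 0 to 2 and 0 or 1 with 1 array left out, in part other genes. The level filter alone left 1 of 6 FMRFamide-like and 6 of 21 neuropeptide-like genes called, and 0 insulin-like genes to test. With filter and block together, 2 and 7 were called. The shares of all genes called in the filtered fits are not given here. Causes were not tested. Dim probe sets, as of *unc-31* and *ida-1*, limit what could be seen.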
